A study of Mus musculus with 4 samples.

Results

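The G1 cyclins, their kinases and their inhibitors were followed through 10 genes: the D-type cyclins Ccnd1, Ccnd2 and Ccnd3, the kinases Cdk4 and Cdk6, and the inhibitors Cdkn1a, Cdkn1b, Cdkn2a, Cdkn2b and Cdkn2c. They were taken as every probe of the array to which the deposited table gives one of these gene symbols, which gave 18 probes of 55681 on the array, and 10 genes of 24561 with a symbol. RNA from 4 lines of L1210, a mouse lymphocytic leukemia cell line (DBA subline 212), had been hybridized to 1 single-colour array per line. The variant lines L1210-Fbxw11a, L1210-Fbxw11c and L1210-Fbxw11d had been infected with lentivirus carrying a splice variant of Fbxw11, the substrate-binding F-box protein of an SCF ubiquitin ligase, and L1210-control is labelled as the control of the same stable transfection. Fbxw11a is the full-length form, Fbxw11c lacks exon 2, and Fbxw11d lacks exons 2 and 3. All 4 lines were GFP+ cells sorted by flow cytometry, which the labels do not describe as single clones, and the study's methods list a lentiviral expression vector, pLV-EF1α-MCS-IRES-Bsd, without stating which vector carried the variants and GFP. The comparison asks whether the transcripts of the G1 machinery differ between the lines labelled with an Fbxw11 variant and L1210-control.

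In G1, D-type cyclins bind CDK4 and CDK6, and the active kinases phosphorylate the retinoblastoma protein, which then releases E2F transcription factors that switch on S-phase genes. The inhibitors form 2 families. The CIP/KIP proteins p21 (Cdkn1a) and p27 (Cdkn1b) bind cyclin-CDK complexes, whereas the INK4 proteins p16 (from Cdkn2a), p15 (Cdkn2b) and p18 (Cdkn2c) bind CDK4 and CDK6 themselves and keep cyclin D from them. The adjoining Cdkn2a and Cdkn2b genes are often deleted in lymphoid leukemia. Each gene is therefore described by its signal in each line, present or not, before any ratio.

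With 1 array per line there was no replicate culture and no test across samples. All 3 ratios of a gene to L1210-control share that line's array, so agreement between them is not separate evidence. Signals are given in L1210-control units: each array was divided by the 75th percentile of its gene spots and multiplied by that of L1210-control. Between 62.5% and 68.7% of the probes were well above background, the scanner software's flag for a spot clearly brighter than its surroundings, and no gene spot was saturated. The error beside a log2 ratio is the SD expected of that ratio from the spread between spots of that brightness on the same pair of arrays, taken from 399 probes that are each printed 10 times. For a probe printed once, as nearly all are, it is the SD between single spots, and for a probe printed 10 times it is the SD of the mean of its unflagged spots, which is smaller. It leaves out culture, sorting and RNA extraction. The L1210-Fbxw11d array lay on another slide than the other 3, so slide and variant cannot be told apart in any comparison with that line. The 2 probes for Fbxw11 itself had log2 ratios to L1210-control of 0.21, 0.22 and 0.18 (first probe) and 0.31, 0.27 and 0.03 (second probe) in the Fbxw11a, Fbxw11c and Fbxw11d lines. These arrays thus show at most a small rise of Fbxw11 signal, and whether the probes lie within the introduced cDNA was not worked out here. The study reports that real-time RT-PCR and western blots showed high Fbxw11 levels in the variant lines. Of 6 B-lineage marker genes summed here, 3 were well above background in every line (Cd79a, Pax5 and Vpreb1), with a summed signal of 156 to 163, and Cd79b, Ebf1 and Igll1 were not. Of 7 T-lineage markers, 4 were well above background, with a summed signal of 4387 to 4817 that came mostly from Cd4 and Cd3e. Of 6 myeloid markers, 4 were well above background in L1210-Fbxw11c and 5 in the other lines, with a summed signal of 7281 in L1210-control and 6351 to 6677 in the variant lines, most of it from Itgam. Within that list Cd14 was lower than L1210-control in the Fbxw11a, Fbxw11c and Fbxw11d lines (-0.32 ± 0.10, -0.60 ± 0.09 and -0.39 ± 0.11), Csf1r was lower in L1210-Fbxw11d (-1.12 ± 0.12, 2.18-fold), Emr1 was higher in L1210-Fbxw11a and L1210-Fbxw11d (0.91 ± 0.35 and 0.91 ± 0.36) and gave -0.44 ± 0.47 in L1210-Fbxw11c, and Lyz2 was not well above background in any line. Ptprc, taken as a marker of any leukocyte, was dim but well above background in every line. It gave 42.9 in L1210-control and 36.1, 29.7 and 31.8 in the Fbxw11a, Fbxw11c and Fbxw11d lines. The part of these markers in the member ratios was not tested.

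2 probe sequences and 4 promoter sequences are shown, because the results below turn on where and on what they report. The Ccnd2 probe, at chr6:127098696-127098755 on the minus strand (mm9), is the only probe for that gene and lies in its coding part. The third Cdk4 probe, in the coding part at chr10:126503162-126503221 (mm9), is shown because the Cdk4 probes did not all point the same way in L1210-Fbxw11d. Both are 60 bases long and are written as the array design gives them, 5′ to 3′.
Ccnd2 probe: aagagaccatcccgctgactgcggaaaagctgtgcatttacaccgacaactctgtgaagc
Cdk4 probe 3: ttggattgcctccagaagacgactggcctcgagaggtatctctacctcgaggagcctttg

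Cdkn1a and Cdkn2a each have 2 transcription starts in RefSeq, and for Cdkn2a they matter for what the array can tell. The upstream start makes p19Arf, a p53 activator that is no CDK inhibitor, and the downstream start makes p16Ink4a, while later exons are shared. Both Cdkn2a probes lie at the 3′ end of the gene, at chr4:88920405-88920464 and chr4:88920543-88920602 on the minus strand (mm9), so their signal cannot be divided between p16Ink4a and p19Arf. The windows below run from 250 bases before to 50 bases after the start, in the gene's direction, from RefSeq on GRCm38.p6, a later build than the mm9 of the probes. Capitals mark GC boxes (GGGCGG on either strand, bound by Sp1) and the E2F motif TTTNGCGC.
Cdkn1a upstream start, chr17:29090729-29091028, plus strand: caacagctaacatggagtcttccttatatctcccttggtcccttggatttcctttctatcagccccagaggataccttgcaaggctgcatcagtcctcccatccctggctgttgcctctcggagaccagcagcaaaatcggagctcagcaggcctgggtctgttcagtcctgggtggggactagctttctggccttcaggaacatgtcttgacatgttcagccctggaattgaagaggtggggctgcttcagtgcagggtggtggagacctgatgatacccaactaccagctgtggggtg
Cdkn1a downstream start, chr17:29093519-29093818, plus strand: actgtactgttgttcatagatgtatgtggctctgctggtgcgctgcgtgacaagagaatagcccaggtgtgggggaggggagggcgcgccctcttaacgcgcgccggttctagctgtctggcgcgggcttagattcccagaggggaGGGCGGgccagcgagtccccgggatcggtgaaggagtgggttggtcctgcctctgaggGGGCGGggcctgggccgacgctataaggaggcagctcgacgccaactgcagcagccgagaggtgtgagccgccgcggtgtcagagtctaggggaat
Cdkn2a upstream start, chr4:89294570-89294869, minus strand: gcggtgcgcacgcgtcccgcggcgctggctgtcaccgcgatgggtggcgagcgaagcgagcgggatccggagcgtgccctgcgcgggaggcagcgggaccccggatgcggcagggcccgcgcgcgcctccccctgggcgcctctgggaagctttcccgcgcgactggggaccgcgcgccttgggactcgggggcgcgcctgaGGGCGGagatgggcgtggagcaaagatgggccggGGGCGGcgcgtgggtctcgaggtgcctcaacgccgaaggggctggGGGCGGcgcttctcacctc
Cdkn2a downstream start, chr4:89282143-89282442, minus strand: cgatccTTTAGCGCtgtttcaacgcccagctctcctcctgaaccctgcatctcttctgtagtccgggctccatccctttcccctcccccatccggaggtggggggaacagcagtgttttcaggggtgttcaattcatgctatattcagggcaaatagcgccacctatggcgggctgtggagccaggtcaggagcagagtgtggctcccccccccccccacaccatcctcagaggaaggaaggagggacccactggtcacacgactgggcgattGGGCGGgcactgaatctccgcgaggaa

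The windows differ in composition, from 54.7% G and C at the upstream Cdkn1a start to 77.0% at the upstream Cdkn2a start. RefSeq windows were found for 8 of the 10 genes, 12 windows in all, and not for Ccnd1 and Ccnd2. A GC box stood in 9 of these 12 windows and in 7 of 8 genes (not Cdk6), against 35.7% of all 32851 windows of the same length. The E2F motif stood in 1 window, that of the downstream Cdkn2a start, against 1.38% of all windows. An E-box (CACGTG, bound by Myc and Max) stood in 3 windows, those of Cdk4, Cdk6 and Cdkn2c, against 7.15%, and the Cdk4 window held 4 matches. The TCF motif CTTTGA was found in the Cdk4 window, against 16.0% of all windows, and its other form CTTTGT in 1 Ccnd3 window, against 18.7%. The core of the cAMP response element (ACGTCA) stood in 1 Ccnd3 and 1 Cdkn2b window, against 7.51%. The NF-κB consensus, present in 8.46% of all windows, matched none of the 12, and neither did the STAT motif TTCNNNGAA (8.30%) or the AP-1 motif TGANTCA (7.81%). Both strands were searched, and a match is a run of letters, not a shown binding site.

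All 5 inhibitor genes were present in all 4 lines by their brightest probe. Of the 10 genes, 9 were well above background on every array, and Ccnd2 was the exception, in L1210-control. Counted by probe, 16 of 18 passed the background flag in L1210-control, and 17, 17 and 18 in the Fbxw11a, Fbxw11c and Fbxw11d lines, and 16 were so on all 4 arrays. Of all probes on the array, 62.5%, 66.0%, 64.3% and 68.7% passed in the same order of lines. The lowest signals that passed were 18.1, 14.4, 14.9 and 10.4, so the probe counts are not a difference of these genes alone. No inhibitor gene therefore showed the loss of signal that a deleted gene would leave at these probes. The Cdkn2a probes cannot tell p16Ink4a from p19Arf, so presence of the p16Ink4a transcript itself is not shown. Probes of different genes bind with different strength, so the signals below are compared between lines for 1 probe at a time, not between genes.

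**Figure D1:**
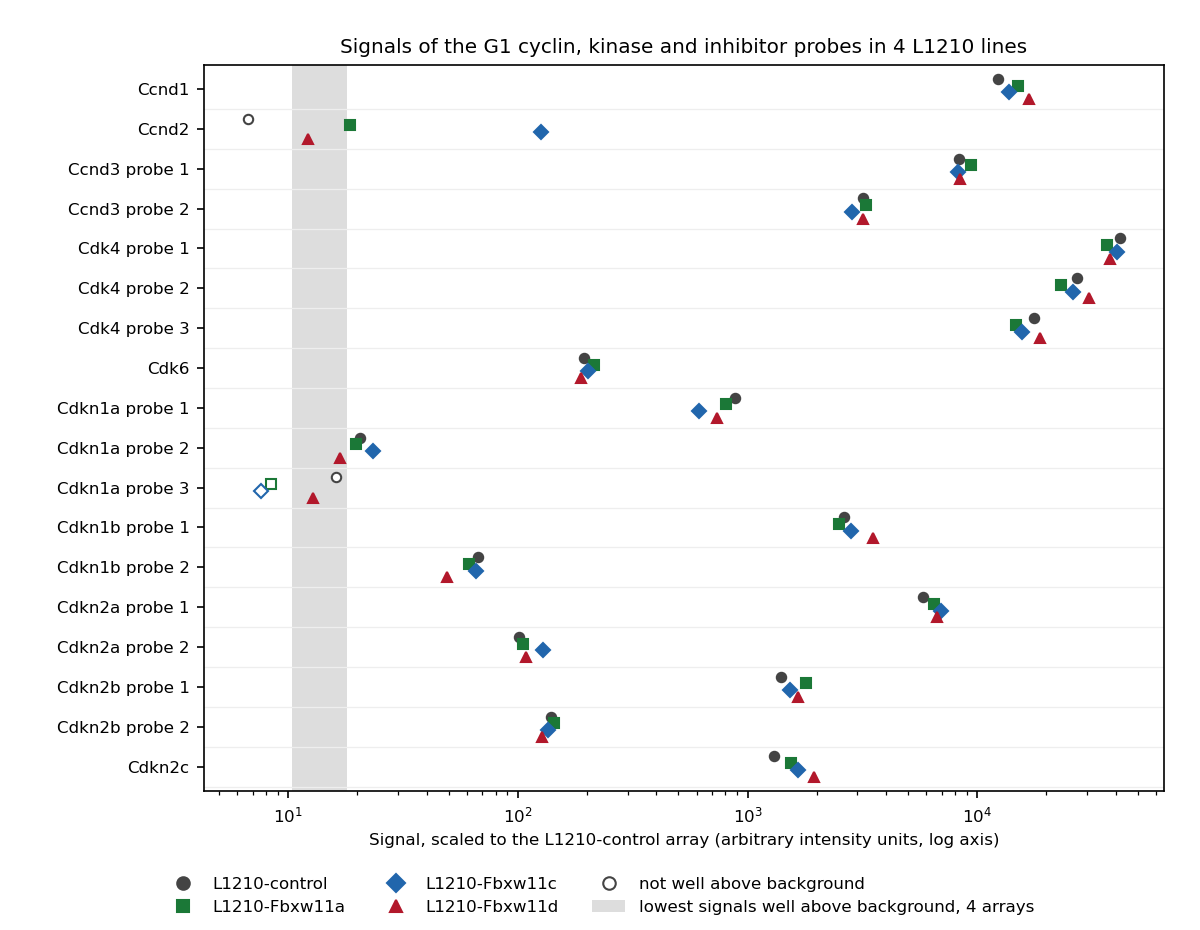
Signal of each of the 18 probes (rows) in the 4 lines, on a log axis in intensity units scaled to the L1210-control array, with 1 point per array. Open points are not well above background, and the grey band spans the lowest signals that were well above background on the 4 arrays (10.4 to 18.1). Ccnd2 is the only row in which 1 line, L1210-Fbxw11c at 125.5, lies more than 2-fold from each of the others.

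Ccnd1 encodes cyclin D1, the D-type cyclin most often induced by mitogenic signals. Its single probe, towards the 3′ end of the transcript at chr7:152116202-152116261 (mm9), gave 12358 in L1210-control and 14999, 13793 and 16721 in the Fbxw11a, Fbxw11c and Fbxw11d lines. All 3 variant lines were above L1210-control. In RNA of whole cultures, here and below, more cells with a transcript and more of it per cell cannot be told apart. The log2 ratio to L1210-control was 0.28 ± 0.08, 0.16 ± 0.08 and 0.44 ± 0.11 in the Fbxw11a, Fbxw11c and Fbxw11d lines (SD from single spots, 1 array per line), or 1.21-, 1.12- and 1.35-fold. The order from high to low was L1210-Fbxw11d, L1210-Fbxw11a, L1210-Fbxw11c and L1210-control, and none of the 3 neighbouring pairs differed by more than 2 of these SDs. The scanner software assumes a larger error, 10% of each spot, which makes 0.20 on a log2 ratio, so that only the difference of L1210-Fbxw11d exceeded 2 such errors.

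Ccnd2, cyclin D2, is the D-type cyclin typical of lymphocytes. The probe gave 6.65 in L1210-control, where the spot was not well above background, and 18.6, 125.5 and 12.2 in the Fbxw11a, Fbxw11c and Fbxw11d lines. Ccnd2 was thus near the detection limit in 3 lines and clearly detected in L1210-Fbxw11c. Because the control spot gives only a bound, set by the lowest L1210-control signal that was well above background (18.1), the L1210-Fbxw11c signal of Ccnd2 was at least 6.94-fold higher, a log2 ratio of at least 2.79. For L1210-Fbxw11a the bound was 1.03-fold, and for L1210-Fbxw11d no fold can be given. Between the lines where it was measured, Ccnd2 was higher in L1210-Fbxw11c than in L1210-Fbxw11a by 2.76 ± 0.53 on the log2 scale, and L1210-Fbxw11d lay at -3.36 against L1210-Fbxw11c. The bound rests on 1 spot per array, and under normexp background correction, which adds an offset to low signals, it was 1.15.

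Ccnd3, cyclin D3, is the D-type cyclin needed for the expansion of lymphoid precursors. Its brighter probe, at chr17:47736579-47736638 (mm9), gave 8292 in L1210-control and 9406, 8250 and 8370 in the Fbxw11a, Fbxw11c and Fbxw11d lines. L1210-Fbxw11a was slightly above the other 3 lines, by 0.18 ± 0.09 against L1210-control, and the other 2 log2 ratios were -0.01 and 0.01. The second probe, at chr17:47736267-47736326, gave log2 ratios of 0.04, -0.16 and -0.01 in the same order. Both probes placed L1210-Fbxw11a highest and L1210-Fbxw11c lowest, and they differed in size: against L1210-control only the first put L1210-Fbxw11a beyond 2 SDs, and only the second L1210-Fbxw11c. The largest fold between any pair of lines was 1.14 for the first probe and 1.15 for the second.

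Cdk4 encodes a catalytic partner of the D-type cyclins and had 3 probes, all bright. The first, at chr10:126504279-126504338 (mm9), gave 41975 in L1210-control and 36780, 40720 and 37824 in the Fbxw11a, Fbxw11c and Fbxw11d lines. The second, at chr10:126504174-126504233, gave 27100, 23100, 26057 and 30691, and the third, the coding probe printed above, 17690, 14754, 15624 and 18739. In L1210-Fbxw11a all 3 probes were lower than in L1210-control, with log2 ratios of -0.19, -0.23 and -0.26 and an SD of 0.08 each. In L1210-Fbxw11c they were also lower, at -0.04, -0.06 and -0.18. In L1210-Fbxw11d the first probe was lower (-0.15 ± 0.11) and the other 2 higher (0.18 ± 0.11 and 0.08 ± 0.11), so no direction can be given for that line. A further probe, described in the array design as Cdk4 but without a symbol and therefore outside the set, gave -0.19, -0.09 and -0.03.

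Cdk6, the other D-cyclin kinase, had 1 probe at chr5:3522106-3522165 (mm9). It gave 195 in L1210-control and 215, 201 and 188 in the Fbxw11a, Fbxw11c and Fbxw11d lines. The 4 values lay within 0.19 ± 0.17 of each other on the log2 scale, and the ratios to L1210-control were 0.14 ± 0.15, 0.05 ± 0.13 and -0.05 ± 0.17.

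**Figure D2:**
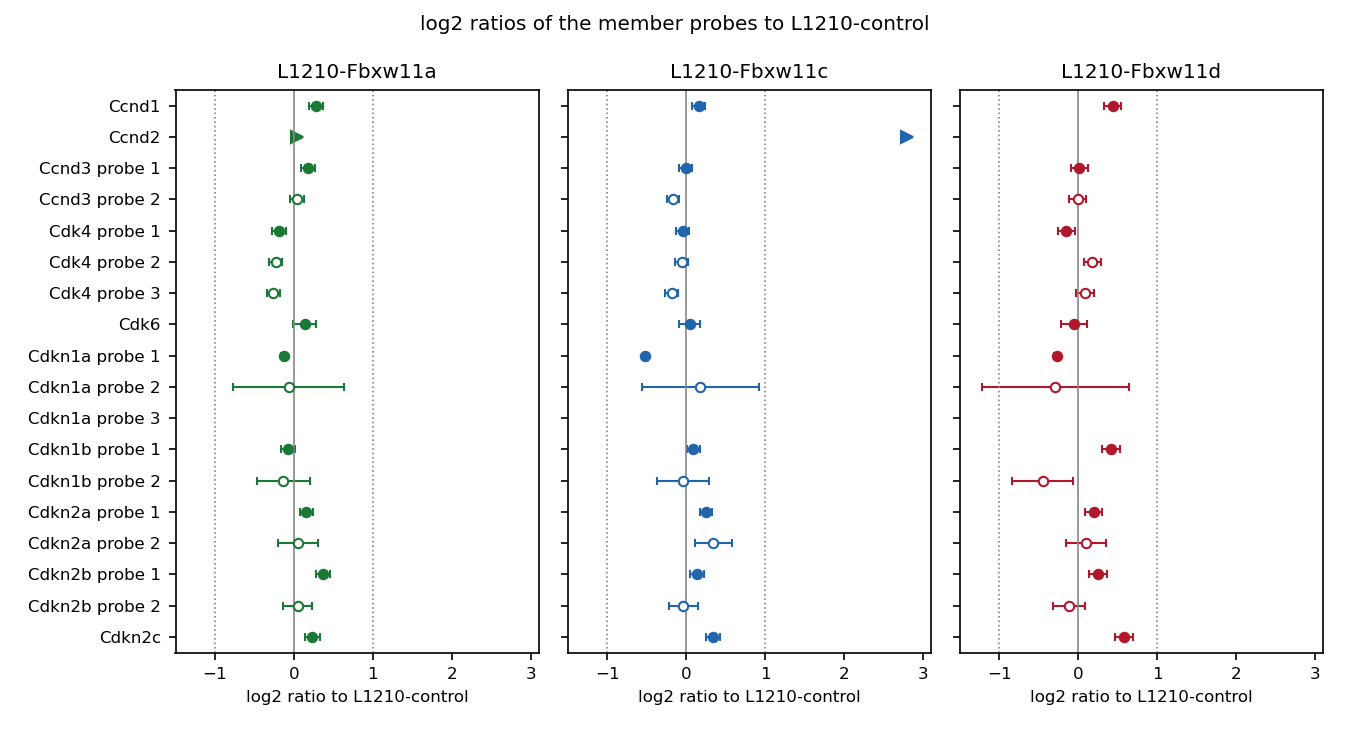
log2 ratio of each probe to L1210-control in the 3 variant lines (panels), with bars of 1 SD expected of the ratio from the spread between spots (of a 10-spot mean for the filled Cdkn1a points, of single spots otherwise). Filled points are the probe that stands for its gene, open points its other probes, arrowheads are lower bounds, and dotted lines mark 2-fold. Only the Ccnd2 bound in L1210-Fbxw11c lies beyond 2-fold, and the filled points of Ccnd1, Cdkn2a, Cdkn2b and Cdkn2c lie above 0, and those of Cdkn1a below 0, in all 3 panels.

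Cdkn1a (p21), a p53 target, was the best measured member, because its first probe, at chr17:29237377-29237436 (mm9), is printed 10 times on each array. The 10 spots ranged from 796 to 925 with a median of 886 in L1210-control. They ranged from 763 to 871 with a median of 807 in L1210-Fbxw11a, and from 592 to 664 with a median of 607 in L1210-Fbxw11c. In L1210-Fbxw11d, 9 unflagged spots ranged from 707 to 762 with a median of 730. All 3 variant lines had a lower mean than L1210-control, the spots of L1210-Fbxw11c and L1210-Fbxw11d did not overlap those of L1210-control, and the spots of L1210-Fbxw11a did. Whether such a lack of overlap is common among the 399 probes printed 10 times was not tested. The log2 ratios were -0.13 ± 0.03, -0.52 ± 0.03 and -0.26 ± 0.04, or 1.09-, 1.44- and 1.20-fold lower, the error being the SD for means of 10 spots (9 in L1210-Fbxw11d). The order was L1210-control, L1210-Fbxw11a, L1210-Fbxw11d and L1210-Fbxw11c from high to low, and each neighbouring pair differed by more than 2 of these SDs. That rests on the averaging: Cdkn1a is the only member whose representative probe has more than 1 spot per array. Set against the SD between single spots, as for the other members, the differences of neighbours were 1.32, 1.09 and 2.21 SDs, and those from L1210-control were 1.32, 6.08 and 2.30 SDs in the Fbxw11a, Fbxw11c and Fbxw11d lines. Spots of 1 array share the cells, the RNA and the labelling, so this precision is that of the array and not of the line. With scaling by spike-in probes, L1210-Fbxw11d was above L1210-control, at 0.32.

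**Figure D3:**
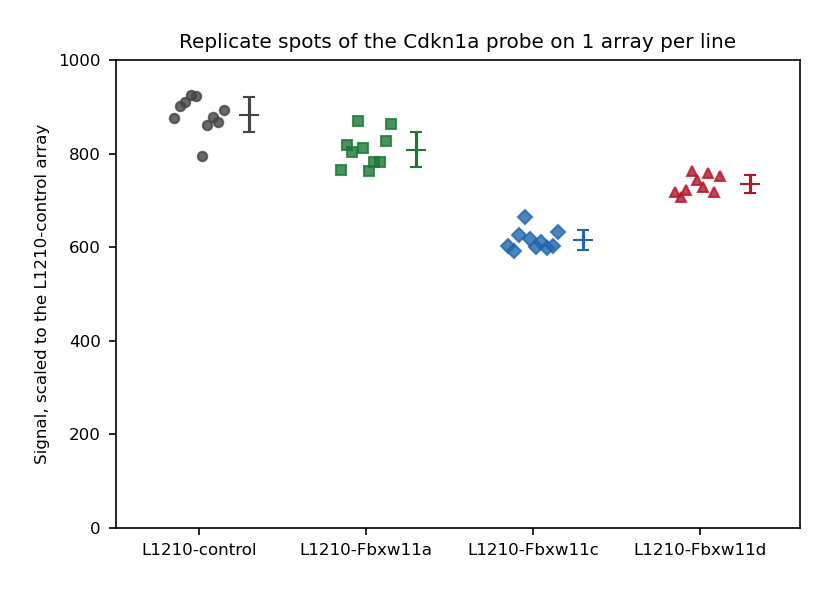
Signals of the replicate spots of the first Cdkn1a probe (y axis, intensity units scaled to the L1210-control array) on the array of each line, with the mean and SD over 10 spots (9 in L1210-Fbxw11d) at the right. The means are 883 ± 37.9 in L1210-control and 808 ± 37.6, 615 ± 21.6 and 735 ± 20.0 in the Fbxw11a, Fbxw11c and Fbxw11d lines, and the spots are not independent samples.

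The other 2 Cdkn1a probes, upstream of the first at chr17:29227986-29228045 and chr17:29235299-29235358, were at the detection limit. The second gave 20.6, 19.7, 23.4 and 16.8 in L1210-control and then the Fbxw11a, Fbxw11c and Fbxw11d lines. The third was well above background in L1210-Fbxw11d alone (12.9), although its signal in L1210-control, which did not pass there, was 16.1. Neither gives a usable ratio, since the SD of the second probe's ratios was 0.70 or more.

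Cdkn1b (p27), a substrate of the SCF-Skp2 ligase in cycling cells, had a first probe at chr6:134875424-134875483 (mm9), which gave 2634 in L1210-control and 2490, 2811 and 3506 in the Fbxw11a, Fbxw11c and Fbxw11d lines. L1210-Fbxw11d stood above the other 3 lines, by 0.41 ± 0.11 against L1210-control and by 0.32 ± 0.11 against its nearest neighbour L1210-Fbxw11c. The log2 ratios of L1210-Fbxw11a and L1210-Fbxw11c to L1210-control were -0.08 ± 0.09 and 0.09 ± 0.08. A dimmer second probe, at chr6:134873606-134873665, gave 67.2, 61.3, 65.5 and 49.3, a ratio of -0.45 ± 0.39 in L1210-Fbxw11d, opposite in sign to the first. The higher Cdkn1b signal in L1210-Fbxw11d was therefore a result of 1 of 2 probes, and the mean of both gave -0.02.

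Cdkn2a, which yields p16Ink4a and p19Arf, was clearly present. Its first probe gave 5820 in L1210-control and 6499, 6935 and 6660 in the Fbxw11a, Fbxw11c and Fbxw11d lines, higher in all 3 variant lines by 0.16 ± 0.09, 0.25 ± 0.08 and 0.19 ± 0.11. The second, dimmer probe gave 101, 105, 129 and 109, with ratios of 0.05 ± 0.25, 0.35 ± 0.24 and 0.10 ± 0.26. Both probes placed L1210-Fbxw11c highest and L1210-control lowest.

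Cdkn2b (p15), the neighbour of Cdkn2a and an effector of TGF-β signaling, was also present. Its first probe, at chr4:88952276-88952335 (mm9), gave 1393 in L1210-control and 1795, 1529 and 1653 in the Fbxw11a, Fbxw11c and Fbxw11d lines. All 3 variant lines were above L1210-control, by 0.37 ± 0.09, 0.13 ± 0.09 and 0.25 ± 0.12 on the log2 scale. The second probe, at chr4:88952720-88952779, gave 139, 144, 135 and 128, and its ratios of 0.05 ± 0.18, -0.04 ± 0.18 and -0.12 ± 0.21 did not follow those of the first.

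Cdkn2c (p18), an INK4 inhibitor with a role in lymphoid differentiation, had 1 probe at chr4:109333508-109333567 (mm9). It gave 1307 in L1210-control and 1538, 1656 and 1949 in the Fbxw11a, Fbxw11c and Fbxw11d lines. Every variant line was above L1210-control by more than 2 SDs between single spots, at 0.23 ± 0.09, 0.34 ± 0.09 and 0.58 ± 0.12, or 1.18-, 1.27- and 1.49-fold. By the error the scanner software assumes (0.20), the difference in L1210-Fbxw11d alone exceeded 2 errors. Of the ratios to L1210-control measured on both arrays, that in L1210-Fbxw11d was the largest among the 10 genes.

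Against the fold change of 2 that the study used, 1 of the 10 genes passed in any comparison with L1210-control. In L1210-Fbxw11a no member passed (0 of 10), where 4.45% of all genes compared did. In L1210-Fbxw11c, Ccnd2 passed as higher, where 1.61% of all genes were higher and 3.88% passed in either direction. In L1210-Fbxw11d no member passed (0 of 10), where 5.75% of all genes did. Between variant lines, Ccnd2 alone was higher in L1210-Fbxw11c than in L1210-Fbxw11a (1.58% of all genes were, and 4.22% passed in either direction) and lower in L1210-Fbxw11d than in L1210-Fbxw11c (3.46% of all genes were, and 4.23% passed in either direction), and 0 of 10 passed between L1210-Fbxw11d and L1210-Fbxw11a (6.01% of all genes did). These comparisons share arrays, so they are not separate evidence.

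Below 2-fold, the SD expected of a ratio from the spread between spots gives another yardstick, for the 9 genes measured on both arrays. In L1210-Fbxw11a, 4 genes (Ccnd1, Ccnd3, Cdkn2b and Cdkn2c) were higher by more than 2 such SDs, where 14.3% of all genes were, and 2 (Cdk4 and Cdkn1a) were lower, where 11.7% were. In L1210-Fbxw11c, Cdkn2a and Cdkn2c were higher (16.8% of all genes) and Cdkn1a was lower (11.2%). In L1210-Fbxw11d, 4 genes (Ccnd1, Cdkn1b, Cdkn2b and Cdkn2c) were higher (18.5%) and Cdkn1a was lower (12.6%). Cdkn2c was thus higher beyond 2 SDs in all 3 lines. Its 3 ratios share 1 L1210-control spot, and the share of all genes higher beyond 2 SDs in all 3 lines is not given. Cdkn1a was lower beyond 2 SDs in all 3 by its 10-spot mean, and in L1210-Fbxw11c and L1210-Fbxw11d but not in L1210-Fbxw11a by the SD between single spots. Against the same SDs, 9 of these 14 differences stayed beyond 2 SDs under each of 6 other ways of processing, and 5 did not. In L1210-Fbxw11a, Ccnd3 fell within 2 SDs with quantile normalization (0.17), the deposited values (0.17) and the mean of both probes (0.11), and Cdk4 with normexp (-0.15). In L1210-Fbxw11d, Cdkn2b fell within 2 SDs with quantile normalization (0.20), the deposited values (0.19) and the mean of both probes (0.06), Cdkn1b with the mean of both probes (-0.02), and Cdkn1a with median centring (-0.05). Spike-in scaling, added later, left 9 of the 14 beyond 2 SDs in the same direction. It brought Ccnd1 (0.15), Ccnd3 (0.05) and Cdkn2c (0.10) in L1210-Fbxw11a and Cdkn2a (0.10) in L1210-Fbxw11c within 2 SDs, and turned the sign of Cdkn1a in L1210-Fbxw11d (0.32). The number of genes is small, and 1 array per line does not show whether a second culture would give the same.

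Over the 9 genes the median log2 ratio was 0.16, 0.09 and 0.19 in the Fbxw11a, Fbxw11c and Fbxw11d lines, against 0.00, 0.02 and 0.04 over all genes measured on both arrays. In each line 6 of the 9 were higher and 3 were lower than in L1210-control, or 66.7% higher against 51.0%, 53.5% and 55.2% of all genes. With cyclins and inhibitors on the same side, these medians are no measure of G1 activity. The members were not matched to all genes in brightness, and the part of brightness in these differences was not tested. Of the 6 fibroblast markers, Col1a2 moved with the variant lines, at log2 ratios of 1.45, 2.10 and 2.05 in the Fbxw11a, Fbxw11c and Fbxw11d lines. It carried the summed signal of the list from 1211 in L1210-control to 2730 to 4081 in the variant lines. No other marker of the list was higher by more than 2 SDs in any line: Pdgfra, printed 10 times, gave -0.02 ± 0.05, -0.55 ± 0.05 and -0.70 ± 0.06, Col1a1 gave 0.04 ± 0.40, 0.38 ± 0.43 and 0.47 ± 0.40, Dcn gave -0.29 ± 0.37, -0.53 ± 0.40 and 0.33 ± 0.36, and Pdgfrb and Thy1 were not well above background in any line. The part of this in the member ratios was not tested.

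A wider list of 30 genes that act with these 10 at the G1/S transition was followed in the same way. None of the 30 passed 2-fold in any of the 3 variant lines (0 of 30 in each), where 4.45%, 3.88% and 5.75% of all genes did. Of 29 genes measured on both arrays, 16, 20 and 23 were higher and 13, 9 and 6 lower in the Fbxw11a, Fbxw11c and Fbxw11d lines, a share higher of 55.2%, 69.0% and 79.3% where 51.0%, 53.5% and 55.2% of all genes measured on both arrays were higher. The median log2 ratios were 0.02, 0.09 and 0.17, against 0.00, 0.02 and 0.04 over all genes. This list was not matched to all genes in brightness either. By the 2-SD yardstick, 7, 11 and 11 of the 29 were higher, where 14.3%, 16.8% and 18.5% of all genes were, and 2, 3 and 3 were lower, where 11.7%, 11.2% and 12.6% were.

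Among the other cyclins and kinases, Ccne1 (cyclin E1, the partner of CDK2) gave 7313, 8410, 9302 and 8948 in L1210-control and then the Fbxw11a, Fbxw11c and Fbxw11d lines, with log2 ratios of 0.20 ± 0.09, 0.35 ± 0.08 and 0.29 ± 0.11. All 3 variant lines were above L1210-control by more than 2 SDs. Ccne2, the second cyclin E, lay between 32.1 and 38.9 with an SD of 0.49 on its ratios. Cdk2 lay between 1326 and 1527, with ratios of -0.12 ± 0.09, -0.03 ± 0.09 and 0.08 ± 0.12.

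The remaining inhibitors were present as well. Cdkn2d (p19Ink4d), the INK4 gene outside the set, gave 7360, 9006, 9079 and 9864 in the same order of lines, higher in each variant line by 0.29 ± 0.09, 0.30 ± 0.08 and 0.42 ± 0.11. It was beyond 2 SDs in all 3, like Cdkn2c, and again the 3 ratios share 1 L1210-control spot. Cdkn1c (p57), the third CIP/KIP gene, lay between 610.2 and 671, and none of its ratios (-0.05, 0.08 and -0.06) exceeded its SD of 0.09 or more.

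The pocket proteins are substrates of the G1 kinases. Rb1, printed 10 times per array, gave 1659, 1449, 1613 and 1615, lower in L1210-Fbxw11a by 0.20 on the log2 scale (-0.20 ± 0.03 for 10-spot means, where the SD between single spots is 0.09) and close to L1210-control in the other 2 lines (-0.04 and -0.04). Rbl1 (p107) had ratios of -0.10 ± 0.09, -0.12 ± 0.08 and 0.08 ± 0.11. Rbl2 (p130) had -0.17 ± 0.10, -0.27 ± 0.09 and 0.14 ± 0.12, lower than L1210-control beyond 2 SDs in L1210-Fbxw11c alone.

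**Figure D4:**
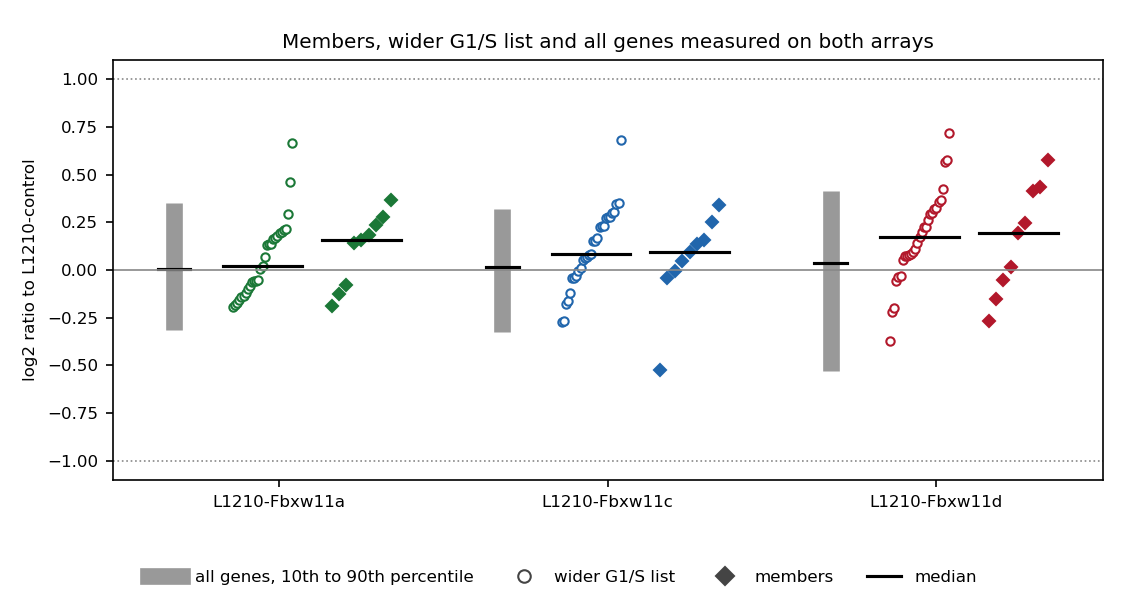
log2 ratios to L1210-control of the members (diamonds) and the wider G1/S list (circles) measured on both arrays, sorted within each line, beside the 10th to 90th percentile of all genes (grey bars). Black lines are medians and dotted lines mark 2-fold, which no measured gene of either list reaches; the Ccnd2 bound is not drawn.

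By the distance between the 3 log2 ratios to L1210-control, the genes closest to Ccnd1 were Zmat3, Hmbox1 and Por, at distances of 0.020, 0.024 and 0.025 among 16248 genes well above background on the same arrays. Zmat3, for example, had ratios of 0.29, 0.17 and 0.45. In all, 62 of the 16248 genes lay within 0.1 of Ccnd1, and the number for a typical gene was not worked out. No such distance is given for Ccnd2, whose ratios to L1210-control are bounds. Likeness over 4 arrays describes these arrays and nothing more.

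The member ratios were recomputed under 6 other ways of background correction, scaling and averaging. Ccnd1, Cdkn2a, Cdkn2b and Cdkn2c stayed higher than L1210-control, and Cdkn1a lower, in all 3 lines. Of the 6 settings, 4 could move each of these genes (normexp, quantile normalization, median centring and the deposited values). The mean of all probes cannot change Ccnd1 or Cdkn2c, which have 1 probe, and keeping flagged spots changed only Cdkn1a in L1210-Fbxw11d. By contrast, the sign of Ccnd3, Cdk4, Cdk6 or Cdkn1b depended on the setting in at least 1 line. Scaling by 8 spike-in probes, chosen after the data were seen, moved the median of all genes in L1210-Fbxw11d to 0.63, and there Ccnd1 (1.02) and Cdkn2c (1.16) passed 2-fold. Spike-in scaling moves every gene of an array by 1 constant, so it leaves the differences between genes as they were.

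**Figure D5:**
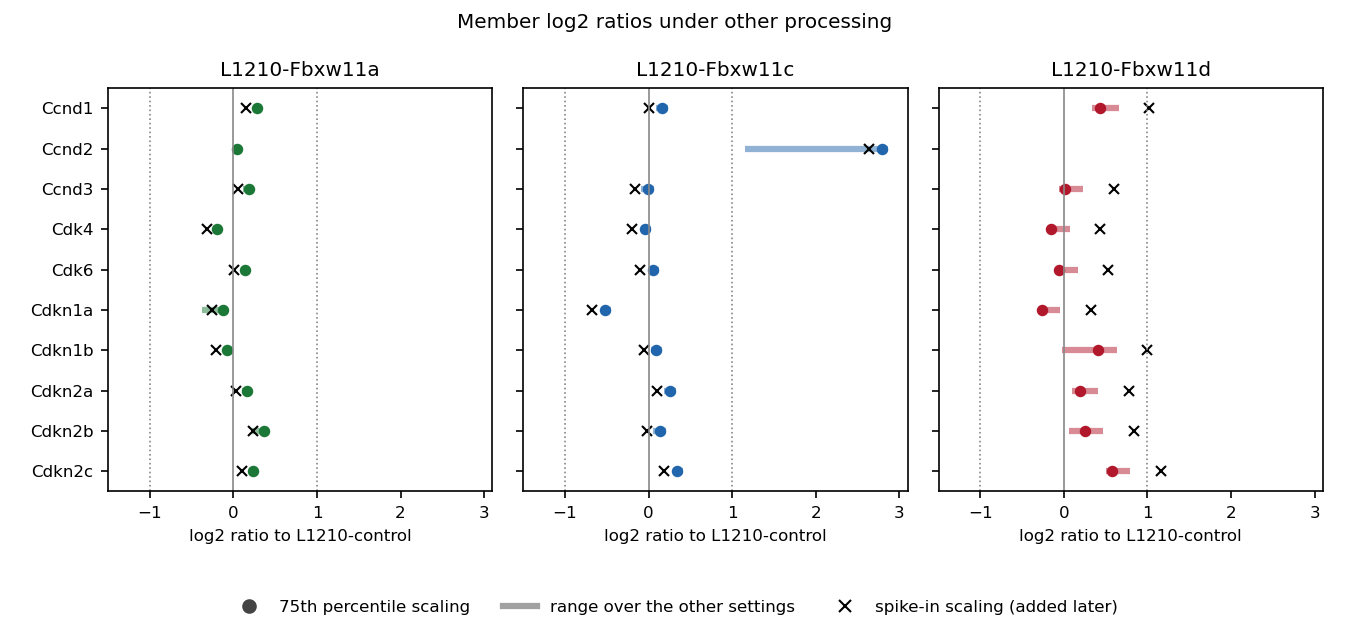
log2 ratio of each gene to L1210-control in the 3 variant lines (panels) under the 75th percentile scaling (points), with the range over the 6 other settings (bars) and the value with spike-in scaling (crosses). Dotted lines mark 2-fold, and the Ccnd2 values are bounds. In L1210-Fbxw11d the crosses lie to the right of the points for every gene drawn, by about the shift of the median.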

How the data were processed

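The authors hybridized Cy3-labelled cRNA of each line to 1 Agilent mouse array. They deposited the scanner output, which holds signal intensity for every spot, background already subtracted, and quality flags (Feature Extraction 10.7.1.1 in the file headers, 9.1 in the submitters' processing notes). They also deposited 1 table of the same signals, with log2 values of near-identical distribution on the 4 arrays, gene symbols and mm9 coordinates. The method of that normalization is not given in the sources used here.

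Processed signals were put on a log2 scale after division by the 75th percentile of the gene spots of the array, which was 620.2 for L1210-control, 954 for L1210-Fbxw11d, and 627 and 672 for the Fbxw11a and Fbxw11c lines. Outlier spots (102 to 167 per array) were dropped before averaging spots within a probe. The flag for well above background was required of at least 0.5 of a probe's spots. The probe of highest mean signal stood for its gene. A dim probe gave a bound, set at the lowest signal well above background on that array or its own signal if higher. The spread between spots was the median SD of the 50 probes nearest in brightness among 399 printed 10 times, and the SD of a ratio divided each array's squared spread by the number of unflagged spots averaged. Precision is limited by having 1 array per line, and no test was made.

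As alternatives, background was corrected by normexp (limma 3.58.1 with an offset of 50), scaling was replaced by quantile normalization, by the median or by the deposited normalized values, flagged spots were kept, all probes of a gene were averaged, other filters on dim probes were tried, and thresholds of 1.5 and 3 were used. Spike-in scaling was added after the data were seen. Named genes were the 10 members, and from the wider list those at 2-fold in any line and 8 fixed cyclin, kinase, inhibitor and pocket protein genes. The members and lists were chosen with earlier results of these data known. A gene of the B-lineage marker list is not reported here and was left out of its counts and sums. Simulated data with known changes were used to test the calls. Python 3.11.15 and R 4.3.3 were used.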

Additional observations from a re-analysis of the deposited data

How the results depend on the processing

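The number of members at 2-fold or more was the same under the alternatives run, except in 3 cases. Ccnd2 dropped out of L1210-Fbxw11c when a spot well above background was required on both arrays (0 members), and it entered in L1210-Fbxw11a without a filter on dim probes (1 member). With spike-in scaling, 2 members passed in L1210-Fbxw11d. In the wider list, the 1.5-fold threshold gave 1 gene in each line (Trp53 in L1210-Fbxw11a and E2f5 in the other 2, named after their values were seen), and spike-in scaling gave 4 in L1210-Fbxw11d. Of 29 member ratios, 10 moved by more than the SD of the ratio under median centring, 6 with the mean of all probes, 2 of 28 with normexp and 26 of 28 with spike-in scaling, the cause of which was not tested. The Ccnd2 bound in L1210-Fbxw11c ranged from 1.15 to 2.87, and Cdkn1a in L1210-Fbxw11d from -0.29 to -0.05. Signs turned for Ccnd3, Cdk4, Cdk6 and Cdkn1b, and with spike-in scaling for Cdkn2b in L1210-Fbxw11c (-0.02) and Cdkn1a in L1210-Fbxw11d. The median of all genes in L1210-Fbxw11d was 0.26 under median centring and 0.63 with spike-in scaling, and with spike-in scaling it was -0.13 and -0.14 in L1210-Fbxw11a and L1210-Fbxw11c. Genes at 2-fold or more numbered 798, 688 and 1060 in the 3 lines, and 249, 212 and 462 with normexp. In L1210-Fbxw11d, 194 were higher and 866 lower, against 314 and 622 with quantile normalization, 400 and 583 with median centring, 316 and 614 with the deposited values, and 1901 and 342 with spike-in scaling. No paired analysis was possible because each line had 1 array. Dim probes, Ccnd2 among them, are limited by signal over background.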
